A study of Mus musculus with 6 samples.

Results

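Serine, glycine and one-carbon metabolism was followed through 10 enzyme genes in the lateral cortex of E12.5 mouse embryos. The 10 genes, of 17068 in the count table, were listed by name because they encode the steps of serine synthesis, the serine hydroxymethyltransferases, the folate cycle and the glycine cleavage system. All 10 were in the table after its filter on low counts. Bulk RNA-Seq was compared between 4 Cre-negative control libraries and 2 libraries labelled Foxp1cKO, to ask how loss of the transcription factor Foxp1 from cortical progenitors alters expression. All 6 libraries came from female embryos of the c57/bl6 strain. Controls 1, 2 and 4 were Foxp1 fl/+, control 3 was Foxp1 fl/fl, and the libraries labelled Foxp1cKO were Foxp1 fl/fl;Emx1Cre. Every library therefore carried at least 1 floxed Foxp1 allele. Emx1Cre drives recombination in progenitors of the dorsal telencephalon, so other cells of the dissected tissue keep Foxp1. The labels do not say which embryos shared a litter or whether tissue was pooled, and p-values measure the spread between these samples only.

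Cells make serine from the glycolytic intermediate phosphoglycerate in the cytosol. Serine hydroxymethyltransferases then move a carbon unit from serine to folate and release glycine, and the glycine cleavage system takes a further unit from glycine in mitochondria. Folate-bound units are used to build purines and thymidylate and to remethylate homocysteine, and the pathway is known for its use in dividing cells and for its link to closure of the neural tube.

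Libraries held 50076008 to 78346979 counts, and the 10 enzymes had 904 to 27551 counts each per library. Foxp1 itself was no lower in the mutant-labelled libraries than in controls. It measured 59.7, 60.8, 71.2 and 79.1 CPM (counts scaled to the size of each library) in controls 1 to 4 and 83.2 and 76.8 CPM in the libraries labelled Foxp1cKO, and its whole-gene count does not separate transcripts with and without the floxed exons. Directions below therefore refer to the labels. The study cites its authors' earlier work for recombination and significant loss of Foxp1 protein at stages before the one sampled. Protein was not measured in these libraries. Of all genes, 26 passed edgeR's quasi-likelihood test at a Benjamini-Hochberg adjusted p of 0.05, which is 0.152% of those tested, and all 26 were higher. Summed red cell markers (6 of 6 detected) ran from 1075 to 3386 CPM in controls and measured 3710.4 and 3969 CPM in the libraries labelled Foxp1cKO, above every control. Taken singly, 3 of the 6 lay above every control, and 5 fold changes were positive and 1 negative. Summed ventral telencephalon markers (5 of 5) ran from 168 to 598 CPM in controls and measured 424 and 298 CPM. Radial glia markers (7 of 8 in the table) summed to 2087 to 2510.5 CPM in controls and 2352 and 2303 CPM in the others, and those of intermediate progenitors (4 of 4) to 569 to 767 CPM and to 545 and 619.7 CPM, so the labelled cortical tissue held the markers of cortical progenitors. Of the remaining lists, those of endothelial cells, microglia and meninges (6 of 6 genes each) overlapped between the groups, at 121 to 188, 19.7 to 31.6 and 40.4 to 269 CPM in controls. In the libraries labelled Foxp1cKO they measured 144 and 179, 32.8 and 30.5, and 59.8 and 150.0 CPM. The part of these cell types in the results below was not tested, and in bulk tissue fewer cells of a type and less RNA per cell cannot be told apart.

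None of the 10 enzymes passed the test between the groups, 0 of 10 against the background of 0.152%. Their values nevertheless separated in 3 cases. Shmt2, the mitochondrial serine hydroxymethyltransferase, lay above every control in both libraries labelled Foxp1cKO, while Psph, the last enzyme of serine synthesis, and Mthfd2, a mitochondrial folate enzyme, lay below every control. Over all genes, 24.6% did not overlap between the groups, 11.5% above and 13.1% below, so 3 of 10 is near the background. Among 7666 genes within the enzymes' range of CPM the share was 27.9%. An unadjusted p under 0.05 was found for Psph, Shmt2 and Gcsh, 3 of 10, where the background was 13.0% over all genes and 15.6% within that range of CPM. With DESeq2 on group alone, which called 2.97% of all genes, 0 of 10 passed as well. The study's own DESeq2 model also held litter, and there Gcsh was listed among the significantly downregulated genes. The edgeR fold changes were negative for 8 of 10 enzymes and for 50.7% of all genes. Their median was -0.16 on the log2 scale, beside 0.00 for all genes.

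**Figure D1:**
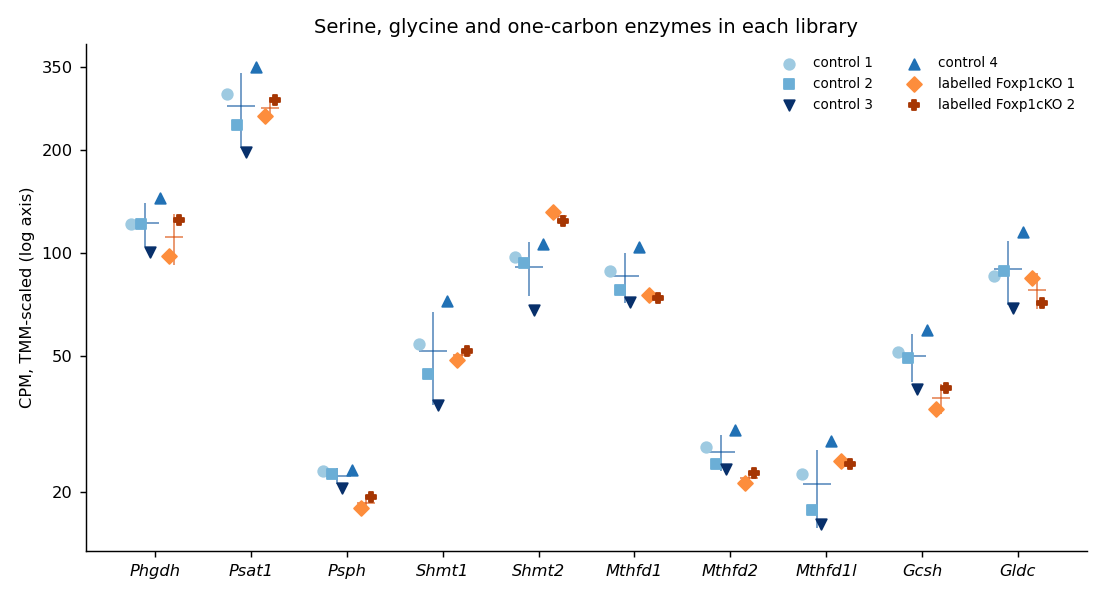
CPM of each enzyme in each library on a log axis, with a horizontal mark at each group's mean and a vertical bar for the SD (4 controls in blue, 2 libraries labelled Foxp1cKO in orange). Control 4 is the highest and control 3 the lowest of the controls in all 10 columns, and the orange points clear every blue point only for Shmt2, Psph and Mthfd2.

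The sequence before the RefSeq start of transcription is given for the 4 genes with the clearest differences in value, Shmt2, Psph, Mthfd2 and Gcsh. Each run is the 250 bases before the RefSeq start in GRCm38.p6, 5′ to 3′ on the minus strand. Capitals mark the hypoxia response core (ACGTG or GCGTG), the CCAAT box (CCAAT) and a palindrome recognised by nuclear respiratory factor 1 (CGCATGCG), on either strand. The Shmt2 run is chr10:127522445-127522694, that of Psph chr5:129787254-129787503, that of Mthfd2 chr6:83317605-83317854 and that of Gcsh chr8:116993499-116993748. RefSeq starts can differ from the gene spans of the GENCODE M21 annotation, which are given below. The Mthfd2 run lies inside its gene's span there, 83305691 to 83325908. Those of Psph and Gcsh overlap their spans in part, and that of Shmt2 lies outside its span.
Shmt2: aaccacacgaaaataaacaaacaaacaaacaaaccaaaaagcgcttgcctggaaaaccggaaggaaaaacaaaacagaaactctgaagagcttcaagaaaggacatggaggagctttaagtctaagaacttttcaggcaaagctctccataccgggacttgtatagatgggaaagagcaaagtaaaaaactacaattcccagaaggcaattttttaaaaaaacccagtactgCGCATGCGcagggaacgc
Psph: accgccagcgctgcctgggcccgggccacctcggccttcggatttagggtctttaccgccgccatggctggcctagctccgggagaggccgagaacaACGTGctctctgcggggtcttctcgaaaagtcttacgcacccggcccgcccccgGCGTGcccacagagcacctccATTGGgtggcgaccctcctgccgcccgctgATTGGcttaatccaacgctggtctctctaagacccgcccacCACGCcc
Mthfd2: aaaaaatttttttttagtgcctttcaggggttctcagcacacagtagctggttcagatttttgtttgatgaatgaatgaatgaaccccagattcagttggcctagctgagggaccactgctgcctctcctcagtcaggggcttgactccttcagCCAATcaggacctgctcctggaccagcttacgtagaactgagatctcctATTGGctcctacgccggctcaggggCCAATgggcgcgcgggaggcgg
Gcsh: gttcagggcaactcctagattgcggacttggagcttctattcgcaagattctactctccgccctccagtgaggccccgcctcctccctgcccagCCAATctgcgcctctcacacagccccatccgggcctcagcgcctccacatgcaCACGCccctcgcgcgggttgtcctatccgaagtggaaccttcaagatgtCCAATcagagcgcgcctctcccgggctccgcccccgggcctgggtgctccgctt

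The Shmt2 window was AT-rich, with 40.8% G and C, where Mthfd2 had 52.4%, Gcsh 64.4% and Psph 67.2%. The median of all windows was 52.4%, and Phgdh, whose groups overlapped, had 44.0%. The Shmt2 window was the only one of the 10 genes with the palindrome, which 1.55% of 32851 mouse promoter windows of the same length hold. The palindrome was searched for after the sequence had been read. A CCAAT box was present for 8 of 10 genes, all but Shmt2 and Mthfd1l, and in 33.8% of all windows. A hypoxia response core was present for 7 of 10 genes, all but Shmt2, Mthfd2 and Gldc, and in 38.6% of all windows. The GC box GGGCGG was present for 7 of 10 and in 32.7% of all. Psat1 alone had 2 windows, so 11 were searched for the 10 genes. By window, the CCAAT box was in 8 of 11, the hypoxia response core in 8 of 11 and the GC box in 7 of 11. Psat1 held the GC box in its second window only. The E-box CACGTG (which holds ACGTG), the amino acid response core TGATGNAA, the E2F sites TTTGGCGC and TTTCGCGC, and the FOX core GTAAACA were in none of the 10, and in 6.02%, 3.45%, 0.654% and 3.17% of all windows. A match is a run of letters and was not tied to binding or to expression.

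Serine synthesis starts with Phgdh, phosphoglycerate dehydrogenase (ENSMUSG00000053398.11, chromosome 3, 98313170 to 98339990, minus strand; GENCODE M21 on mm10, as for all positions that follow). Phgdh measured 122, 121, 101 and 144 CPM in controls 1 to 4 and 98.0 and 125 CPM in the libraries labelled Foxp1cKO. The first of these was the lowest of the 6 libraries and the second lay within the controls, so the groups overlapped. Its log2 fold change was -0.13 (SE 0.157), with an adjusted p of 0.754 by edgeR (quasi-likelihood test, Benjamini-Hochberg adjustment over all genes). Psat1, phosphoserine aminotransferase (ENSMUSG00000024640.9, chromosome 19, 15904678 to 15947337, minus strand), measured 292, 236, 198 and 350 CPM in controls and 251 and 279 CPM in the others. Both lay inside the range of the controls. Its log2 fold change was -0.02 (SE 0.214; adjusted p of 0.979 by edgeR). Psph, phosphoserine phosphatase (ENSMUSG00000029446.14, chromosome 5, 129765558 to 129787449, minus strand), varied least between controls. It measured 23.0, 22.6, 20.5 and 23.3 CPM there and 17.96 and 19.3 CPM in the libraries labelled Foxp1cKO. Both lay under the lowest control, control 3. Its mean of 18.6 ± 0.954 CPM (SD, n = 2) stood against 22.4 ± 1.25 (SD, n = 4), a log2 fold change of -0.26 (SE 0.0994) with an unadjusted p of 0.0336 and an adjusted p of 0.351 by edgeR. Psph shares 452 exonic bases with Cct6a on the opposite strand, and the strand setting of the counting is not given in the sources used here. Cct6a, a chaperonin subunit gene, measured 333 to 398 CPM in controls and 317 and 326 CPM in the others, with a log2 fold change of -0.20. The effect of the shared stretch on the count of Psph was not tested.

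The serine hydroxymethyltransferases gave the largest positive fold change of the 10 enzymes, in the mitochondrial form, and a value near zero in the cytosolic form, neither past the test. Shmt2 (ENSMUSG00000025403.5, chromosome 10, 127517123 to 127522444, minus strand), whose promoter window is given above, measured 97.1, 93.6, 68.2 and 106 CPM in controls. It measured 132 and 124 CPM in the libraries labelled Foxp1cKO, the highest values of the 6. The means were 91.2 ± 16.3 CPM (SD, n = 4) and 128 ± 5.25 CPM (SD, n = 2), a ratio of 1.40. The log2 fold change was 0.49 (SE 0.164), with an unadjusted p of 0.0201 and an adjusted p of 0.313 by edgeR (quasi-likelihood test, Benjamini-Hochberg adjustment over all genes). Against single controls the log2 difference of the group mean of Shmt2 ran from 0.27 for control 4 to 0.91 for control 3. Shmt2 shares 32 exonic bases with Ndufa4l2, a hypoxia-induced mitochondrial gene on the opposite strand, which measured 0.974 to 1.68 CPM in controls and 4.39 and 4.86 CPM in the others. The part of reads from the shared bases in the count of Shmt2 was not tested. Shmt1 (ENSMUSG00000020534.14, chromosome 11, 60788104 to 60811718, minus strand) measured 54.1, 44.3, 36.0 and 72.2 CPM in controls and 48.8 and 51.8 CPM in the libraries labelled Foxp1cKO. Both lay in the middle of the controls, whose highest value was 2.01 times the lowest, the widest spread of the 10. Its log2 fold change was -0.04 (SE 0.253; adjusted p of 0.967 by edgeR). Shmt1 shares 184 exonic bases with Smcr8 on the opposite strand.

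Among the folate cycle enzymes the fold changes of the cytosolic enzyme and of the mitochondrial ligase differed in sign, and none passed the test. Mthfd1 encodes the cytosolic enzyme that interconverts the folate forms (ENSMUSG00000021048.7, chromosome 12, 76255298 to 76319803, plus strand). It measured 88.6, 78.2, 71.9 and 104 CPM in controls and 75.6 and 74.0 CPM in the others. Both lay between control 3 and control 2, and the log2 fold change was -0.20 (SE 0.149; adjusted p of 0.600 by edgeR). Mthfd2, the mitochondrial dehydrogenase and cyclohydrolase (ENSMUSG00000005667.8, chromosome 6, 83305691 to 83325908, minus strand), measured 27.0, 24.1, 23.3 and 30.4 CPM in controls. It measured 21.2 and 22.7 CPM in the libraries labelled Foxp1cKO, both just under control 3. The log2 fold change was -0.26 (SE 0.130; adjusted p of 0.450 by edgeR). Mthfd1l, the mitochondrial ligase that releases formate (ENSMUSG00000040675.17, chromosome 10, 3973118 to 4167081, plus strand), measured 22.6, 17.7, 16.1 and 28.1 CPM in controls and 24.6 and 24.2 CPM in the others. Both exceeded every control but control 4. The log2 fold change was 0.21 (SE 0.220; adjusted p of 0.722 by edgeR).

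Both glycine cleavage genes of the 10 enzymes had negative fold changes, neither past the test. Gcsh encodes the carrier protein of the system (ENSMUSG00000034424.5, chromosome 8, 116981810 to 116993537, minus strand) and had the lowest fold change of the 10 enzymes. It measured 51.2, 49.2, 40.1 and 59.4 CPM in controls and 35.0 and 40.3 CPM in the libraries labelled Foxp1cKO. The first lay under every control and the second just above control 3, so the groups overlapped by that library alone. The means were 49.99 ± 7.93 CPM (SD, n = 4) and 37.6 ± 3.76 CPM (SD, n = 2), a ratio of 0.753. The log2 fold change was -0.41 (SE 0.157), with an unadjusted p of 0.0350 and an adjusted p of 0.355 by edgeR (quasi-likelihood test, Benjamini-Hochberg adjustment over all genes). Gldc, the decarboxylase that splits glycine (ENSMUSG00000024827.9, chromosome 19, 30098447 to 30175429, minus strand), measured 85.8, 88.8, 69.0 and 115 CPM in controls and 84.8 and 71.3 CPM in the others. Both lay between control 3 and control 1. The log2 fold change was -0.20 (SE 0.193; adjusted p of 0.690 by edgeR).

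**Figure D2:**
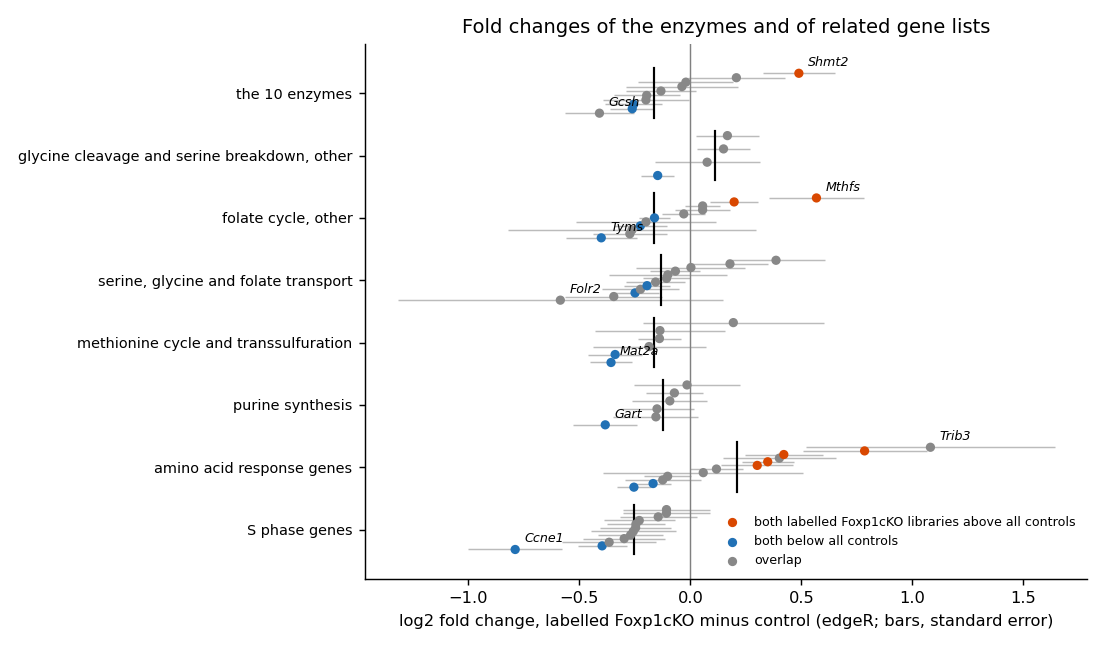
Log2 fold change of each gene, labelled Foxp1cKO minus control, with its standard error from edgeR, for the 10 enzymes and 7 related lists; a black bar marks each list's median and colour marks genes whose groups did not overlap. No gene passes the adjusted threshold, Shmt2 stands at 0.49 among the 10 enzymes, and all 12 S phase genes lie left of zero.

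The ratio of the mitochondrial to the cytosolic enzyme, computed within each library on a per-length scale (FPKM, which is CPM divided by the kilobases of exon), does not depend on the scaling between libraries. For Shmt2 over Shmt1 it was 2.24, 2.64, 2.37 and 1.84 in controls 1 to 4 and 3.37 and 3.00 in the libraries labelled Foxp1cKO. Both lay above every control, and the difference of the mean log2 ratio was 0.50, with an SD of 0.22 between controls. For Mthfd1l over Mthfd1 it was 0.255, 0.227, 0.225 and 0.270 in controls and 0.326 and 0.328 in the others, again above every control, with a log2 difference of 0.42 and an SD of 0.131 between controls. Mthfd2 over Mthfd1 was 0.388, 0.392, 0.413 and 0.372 in controls and 0.357 and 0.391 in the others. These values overlapped, with a log2 difference of -0.07 and a control SD of 0.06. Of all other genes, 5.43% had a ratio to Shmt1 and 22.2% a ratio to Mthfd1 above every control, and the ratios to Mthfd1 share their denominator. No test was run on the ratios.

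**Figure D3:**
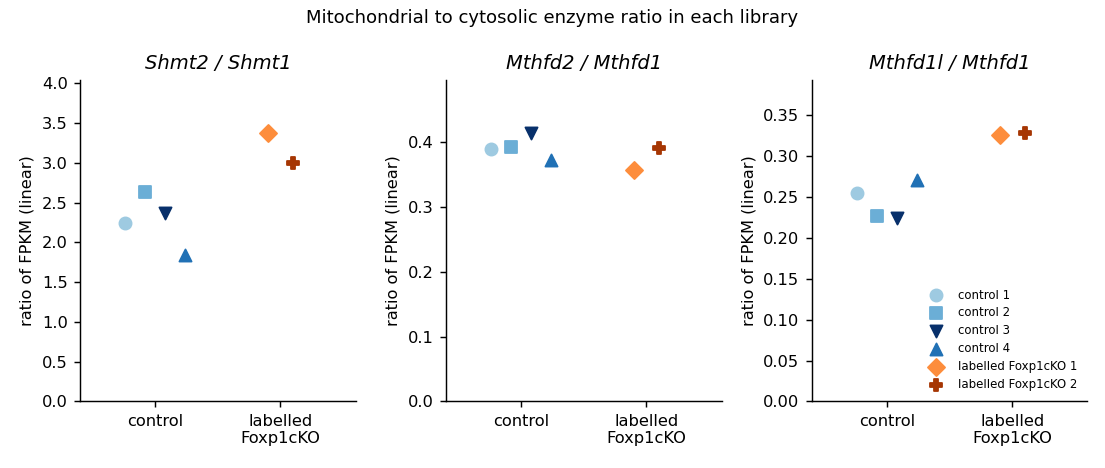
Ratio of FPKM of the mitochondrial to the cytosolic enzyme in each library, on linear axes that start at 0; points are single libraries, set apart sideways for legibility. The libraries labelled Foxp1cKO lie above all controls for Shmt2 over Shmt1 and for Mthfd1l over Mthfd1, and overlap them for Mthfd2 over Mthfd1.

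The most regular pattern in the 10 enzymes lay among the controls. Control 4 was the highest and control 3 the lowest control for all 10, an order that 22.3% of all genes shared, and 27.6% of genes in the enzymes' range of CPM. The ratio of control 4 to control 3 ran from 1.13 for Psph to 2.01 for Shmt1, and its median log2 value was 0.60, beside 0.04 for all genes, of which 13.0% exceeded 0.60. Members of 1 pathway share their libraries and are not independent, so this is a description. Control 3 is also the only control homozygous for the floxed allele, and its genotype and its library cannot be told apart.

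The 12 S phase genes, which serve DNA replication, and the 6 purine synthesis genes, which use folate-bound carbon, took the same order of controls in 12 of 12 and 6 of 6 cases. Summed S phase levels were 2631, 2469.9, 2077 and 3186 CPM in controls 1 to 4 and 2159 and 2199 CPM in the libraries labelled Foxp1cKO. Neuron markers (6 of 8 in the table) ran the other way, with summed levels of 3657, 4443, 4794 and 2668 CPM in controls and 3489 and 3573 CPM in the others. Control 4 was thus the lowest in neuron markers and the highest in the enzymes. Ventral telencephalon markers were highest in control 3, at 598 CPM. Red cell markers stood apart in control 4, at 3386 CPM, beside 1414, 1075 and 1125 CPM in controls 1 to 3. The part of these differences in the enzymes' levels was not tested.

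**Figure D4:**
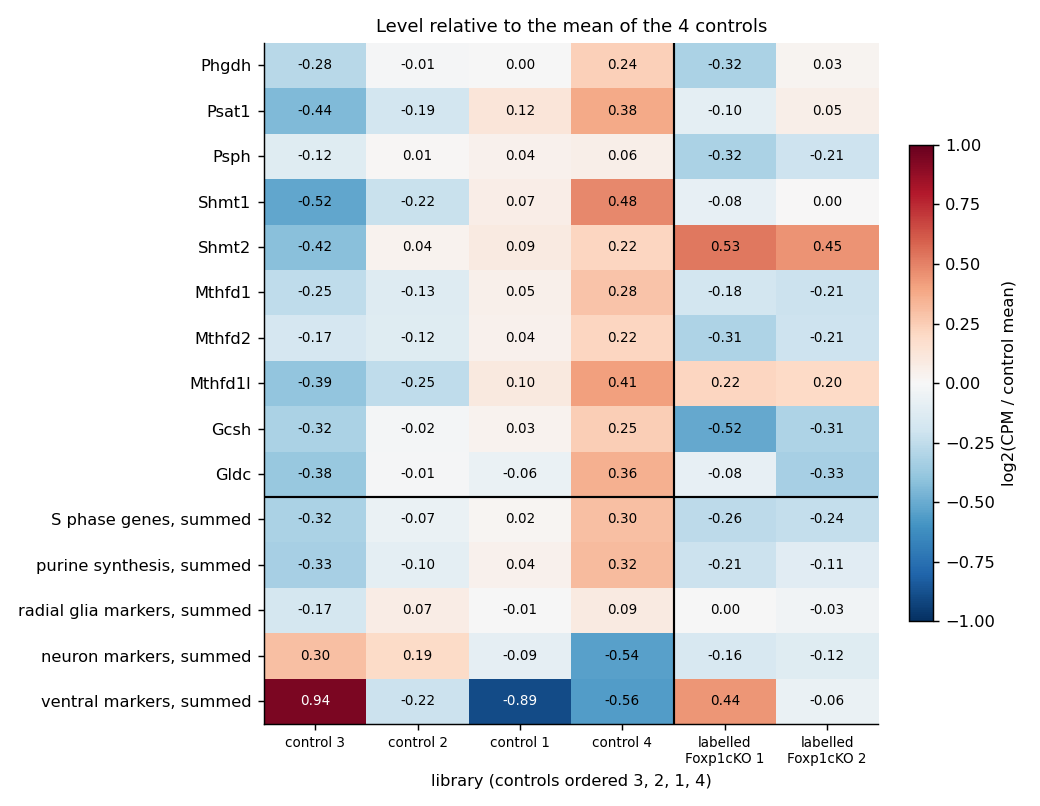
Log2 of CPM relative to the mean of the 4 controls for each enzyme (above the line) and for summed gene lists (below it), one column per library with controls ordered 3, 2, 1, 4. The enzymes, the S phase genes and the purine genes run from blue in control 3 to red in control 4, the neuron markers run the other way, and Shmt2 is the only enzyme with both labelled Foxp1cKO columns above the column of control 4.

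The direction of the 10 enzymes as a set differed with the control used. Against control 4 the mean of the libraries labelled Foxp1cKO was lower for 9 of 10, with a median log2 difference of -0.43 and Shmt2 as the exception. Against control 1 it was lower for 8 of 10 (median -0.14), and against control 2 for 6 of 10 (median -0.09). Against control 3 it was lower for 3 of 10 and higher for 7 of 10, with a median of 0.16. These 4 comparisons share the libraries labelled Foxp1cKO.

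Because the enzymes and the S phase genes took the same order of controls, each enzyme was also expressed relative to the summed S phase CPM of its own library, a scale chosen after the values were seen. Per 1000 CPM of S phase genes, Shmt2 measured 36.9, 37.9, 32.8 and 33.3 in controls 1 to 4 and 61.0 and 56.5 in the libraries labelled Foxp1cKO, above every control. Psat1 measured 111, 95.7, 95.3 and 110 in controls and 116 and 127 in the others, and Mthfd1l measured 8.59, 7.17, 7.75 and 8.83 in controls and 11.4 and 11.0 in the others. These also lay above every control. Gcsh measured 19.5, 19.9, 19.3 and 18.6 in controls and 16.2 and 18.3 in the others, below every control. Psph and Mthfd2, which lay below every control by CPM, overlapped the controls on this scale. Over all genes, 23.8% lay above every control on this scale and 1.07% below, and the divisor, the summed S phase level, was low in the libraries labelled Foxp1cKO. No test was run on these values.

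By level per length, Psat1 was the most abundant of the 10 transcripts in controls, at 63.2 ± 15.6 FPKM (SD, n = 4), followed by Phgdh at 49.1 ± 7.15 FPKM. Gcsh (31.7 ± 5.02 FPKM) and Shmt2 (29.3 ± 5.23 FPKM) came next, then Mthfd1 (19.3 ± 3.19 FPKM), Gldc (14.7 ± 3.12 FPKM) and Shmt1 (13.3 ± 4.01 FPKM). The lowest were Mthfd2 (7.52 ± 0.927 FPKM), Psph (5.16 ± 0.289 FPKM) and Mthfd1l (4.77 ± 1.22 FPKM). Psat1 stood at percentile 96.9 of all genes and Mthfd1l at 50.7. The ranges of controls did not overlap between Phgdh and Gcsh, between Shmt1 and Mthfd2, or between Mthfd2 and Psph, and they overlapped between all other neighbours in this order. With the longest transcript as the length, Gcsh and Shmt2 changed places. The steps of serine synthesis thus spanned the range, with Psat1 and Phgdh at its top and Psph near its bottom.

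No other gene of the surrounding pathway passed edgeR's test with Benjamini-Hochberg adjustment. In 5 lists of neighbouring steps, 39 of 42 listed genes were in the table, 11 had positive and 28 negative fold changes, and the median was -0.14. Of the 39, 2 lay above and 9 below all controls, beside 11.5% and 13.1% of all genes. Among 11 further folate genes, values ran from Tyms, thymidylate synthase, to Mthfs, which returns a stored folate to the cycle. Tyms measured 86.9, 74.4, 69.1 and 102 CPM in controls and 61.1 and 64.6 CPM in the others, below every control (log2 fold change -0.40, SE 0.159; adjusted p of 0.364 by edgeR). Mthfs measured 2.78, 3.33, 3.92 and 4.20 CPM in controls and 5.58 and 4.98 CPM in the others, above every control (log2 fold change 0.57, SE 0.213; adjusted p of 0.349 by edgeR).

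In the other lists the extremes were as follows. Among 4 genes of glycine cleavage and serine breakdown, log2 fold changes ran from -0.15 for Dld, the shared lipoamide dehydrogenase, to 0.17 for Amt, the aminomethyltransferase. Among 12 transporters they ran from -0.59 for Folr2, a folate receptor at 0.097 to 0.436 CPM in controls, to 0.39 for Slc7a10, a serine and glycine exchanger. Among 6 genes of the methionine cycle and transsulfuration they ran from -0.36 for Mat2a, which makes the methyl donor S-adenosylmethionine, to 0.19 for Cth, which makes cysteine. Mat2a lay below every control, at 285 and 248 CPM beside 321 to 370 CPM. All 6 purine genes were negative, from -0.38 for Gart, which uses a folate unit, to -0.02 for Ppat, the entry enzyme.

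Genes of the amino acid response, several of them targets of the transcription factor Atf4 in other systems, were listed beside the enzymes. Of 12, 8 had positive fold changes, with a median of 0.21, and none passed the test. Of the 12, 4 lay above all controls and 2 below, beside 11.5% and 13.1% of all genes. The ends were Aldh18a1, a proline synthesis enzyme, at -0.25, and Trib3, a pseudokinase, at 1.08. Trib3 measured 0.920, 0.531, 0.809 and 2.46 CPM in controls and 2.40 and 2.62 CPM in the others, so control 4 lay among the libraries labelled Foxp1cKO. Asns, asparagine synthetase, named after its values were seen, measured 20.7 to 27.2 CPM in controls and 30.4 and 30.1 CPM in the others, above every control. Atf4 itself, also named after its values were seen, measured 132.9 to 147 CPM in controls and 121 and 132.6 CPM in the others. Both lay below every control, the second only just, and the log2 fold change was -0.17. All 12 S phase genes were negative, with a median of -0.25, from -0.79 for Ccne1, a cyclin of S phase entry, to -0.11 for Mcm3, a replicative helicase subunit.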

How the data were processed

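The authors prepared stranded libraries (TruSeq) from total RNA, sequenced paired ends, aligned them to mm10 with STAR and counted genes with HTSeq 0.9.1 in union mode. They removed genes with fewer than 10 counts in many samples. The deposited count table holds whole, unnormalized counts, and a second table deposited by the authors holds variance-stabilized values on a log2-like scale, used only with limma. The strand setting of the counting is not given in the sources used here. The authors' model held litter, which was not used here.

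Counts were tested with edgeR 4.0.16 (quasi-likelihood, TMM, group alone, all 17068 genes, Benjamini-Hochberg adjustment, threshold 0.05) in R 4.3.3. CPM are TMM-scaled, and FPKM divide them by the union of exons in GENCODE M21, in which 21 identifiers were not found. A floor of 3 counts is 0.0381 to 0.0596 CPM, for counting error only. Pairs of replicates differed by a chi-square of 25.9 to 193 per gene. The members and lists were chosen with earlier results of these data known. Named genes were the 10 enzymes, Foxp1, and the highest and lowest fold change of each list, and any other gene is named for a shared exon or after its values were seen. Listed genes outside the table were not analysed here. Alternatives were DESeq2 1.42.0, limma 3.58.1, 1 surrogate variable (sva 3.50.0), other scaling factors, a filter on low counts, each library left out, and a block on replicate number. Promoter windows came from the RefSeq table for GRCm38.p6. All tests were tried on simulated counts.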

Additional observations from a re-analysis of the deposited data

How the results depend on the processing

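None of the 10 enzymes passed the adjusted threshold under any of 13 alternatives, all without litter. The lowest adjusted p of any enzyme was 0.119, for Shmt2 with DESeq2. The fold change kept its sign under all 13 for 7 of 10 enzymes, Shmt2 (0.36 to 0.57), Gcsh (-0.53 to -0.31), Psph (-0.33 to -0.21), Mthfd2 (-0.32 to -0.18), Mthfd1 (-0.29 to -0.089), Mthfd1l (0.085 to 0.38) and Gldc (-0.33 to -0.057). Leaving out 1 library moved the last 3 by over 1.5 times. Mthfd1 was -0.089 without control 4. Mthfd1l was 0.13 without control 2, 0.085 without control 3 and 0.38 without control 4. Gldc was -0.32 without control 3, -0.057 without control 4, -0.33 without Foxp1cKO 1 and -0.095 without Foxp1cKO 2. Values near zero changed sign, and the cause was not tested. Phgdh ran from -0.33 without Foxp1cKO 2 to 0.031 without Foxp1cKO 1. Psat1 reached 0.014 with limma, 0.073 with a surrogate variable, and -0.15 to 0.13 with 1 library left out (positive without control 1, control 4 or Foxp1cKO 1). Shmt1 reached 0.0097 with limma, 0.078 with a surrogate variable, and -0.19 to 0.17 with 1 library left out (positive without control 4 or Foxp1cKO 1).

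The count of all genes passing, 26 in edgeR, was 507 with DESeq2 (310 higher, 197 lower) and 2 to 96 with 1 library left out (6 without control 1, 2 without control 2, 96 without control 4, 9 without Foxp1cKO 1 and 3 without Foxp1cKO 2). In the related lists DESeq2 called 3 genes, Ccne1, Mat2a and Rrm2, all lower. The log2 difference of the Mthfd2 to Mthfd1 ratio ran from -0.13 to -0.0017 with 1 library left out, and with the longest transcript 2 enzymes changed places by level.

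With a replicate block, 0 genes passed, Psat1 was 0.013 and Shmt1 0.040, and no enzyme changed its call. Nothing in the labels links equal numbers across the groups, and deviations of same-numbered libraries correlated at -0.198 and 0.0157, so the samples share only a number. Each enzyme had at least 904 counts per library, and the effect of depth on the calls was not tested.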
